A study of Caenorhabditis elegans with 4 samples.

Results

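The regions described here are the stretches of the X chromosome of Caenorhabditis elegans on which LIN-39 was found in third-stage (L3) larvae. They are the 1509 entries of the authors' deposited list that lie on X, out of 7493 on all chromosomes. Chromatin immunoprecipitation followed by sequencing (ChIP) was done on hermaphrodites of strain OP18. These worms carry the integrated transgene wgIs18, in which lin-39 is fused to TY1, EGFP and 3xFLAG tags and which also brings the normal gene unc-119(+). It was bombarded into worms with the mutation unc-119(ed3) on chromosome III, and every library, input included, comes from this genotype. The worms were fed Escherichia coli HB101 in liquid at 20 °C, crosslinked with 2% formaldehyde, and the fusion protein was pulled down by polyclonal goat antibodies to EGFP. There were 2 ChIP libraries and 2 libraries of input, DNA that had not been precipitated, in 2 replicates. All were joined in a single list with 1 q-value per region, so no value has a spread between replicates. The labels give the stage as L3, although their ChIP protocol speaks of embryos. Worms were taken whole, and the signal is therefore a sum over all cells that make the fusion protein. No library without the fusion protein was used here, so the part of other antibody signal in the list was not tested.

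LIN-39 is a Hox protein of the mid-body: a transcription factor that binds DNA through its homeodomain and is known for specifying vulval precursor cells, ventral cord neurons and migrating neuroblasts. Hermaphrodites carry a pair of X chromosomes and males a single copy. In hermaphrodites a dosage compensation complex binds both copies of X and lowers their transcription. The autosomes of this worm have centres rich in genes and arms with more repeats and more recombination, whereas on X genes are spread more evenly. X is also known for carrying few of the genes that are active in the germ line.

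The comparison of ChIP with input asks which parts of the genome the tagged protein occupied. Reads worked out from the q-values (see the account of processing) put the number of regions tested at 25497, of which 29.4% were listed, all with q below 0.01. How many were tested on X is not known, so the share called cannot be given for X alone. The comparison chromosomes are the autosomes II, III, IV and V, with 4200 regions. The remaining autosome, I, was not compared with X. It held 1784 regions at 118.7 per Mb, more than X, and the factor fitted for its input was lower, 1.385. Coordinates are on genome build WS180. Regions are given by position alone, without gene names or sequence, because the gene table used here belongs to another assembly (WBcel235).

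X was denser in LIN-39 regions than each of the autosomes II, III, IV and V. It carried 85.4 regions per Mb over a span of 17.67 Mb, against 62.3 per Mb on the 4 autosomes together. The density ratio was 1.37 (exact 95% interval 1.29 to 1.45, exact binomial test, two-sided, p = 1.69e-24). Chromosome III came nearest to X, at 77.6 per Mb, with a ratio of X to III of 1.10 (1.02 to 1.19, adjusted p = 0.0163, exact binomial test). Against II (69.2 per Mb) the ratio was 1.23 (1.14 to 1.34, adjusted p = 2.04e-07, exact binomial test). Against IV (60.4 per Mb) it was 1.41 (1.31 to 1.53, adjusted p = 7.24e-18, exact binomial test). The widest difference was with V (48.8 per Mb), at 1.75 (1.61 to 1.89, adjusted p = 1.52e-43, exact binomial test). These 4 p-values were adjusted together by the Benjamini-Hochberg method. Counting error is all that these intervals and tests take into account, and they count neighbouring regions as if they were independent. X is 1 chromosome against 4, and an exact permutation test over chromosomes could not go below p = 0.2. In the 50% of the list with the smallest q the difference from III was no longer past the threshold (1.09, 0.975 to 1.22, adjusted p = 0.126, exact binomial test).

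With arms of 30%, the excess of X over II to V passed the test in the arms and not in the centre, and the centre depended on the arm length. When the outer 30% of the span at each end was taken as arm and a region was placed by its midpoint, the left arm of X (up to 5302397) held 488 regions, the centre 545 and the right arm (from 12372261) 476. This gave 92.0 regions per Mb in the left arm, 77.1 in the centre and 89.8 in the right arm. On the 4 autosomes together the order was the other way, with 53.8 per Mb in left arms, 76.0 in centres and 52.6 in right arms. The ratio of X to the autosomes was thus 1.71 in the left arm (1.53 to 1.90, adjusted over the 3 parts p = 8.53e-21, exact binomial test). It was 1.71 again in the right arm (1.53 to 1.90, adjusted p = 1.68e-20, exact binomial test). For the centre the ratio was 1.01 (0.922 to 1.12, adjusted p = 0.753, exact binomial test). This interval holds counting error alone and refers to the 4 autosomes together. Their single centres ran from 64.4 per Mb on IV to 91.1 per Mb on III, so it does not bound the difference from each autosome. The odds that a region lay in an arm were 1.68 times as high on X as on II to V (1.49 to 1.90, two-sided Fisher's exact test, p = 2.09e-17).

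Each arm of X was denser than each of the 8 arms of the comparison autosomes. The densest autosomal arms were the right arms of III (74.1 per Mb) and II (73.8 per Mb) and the left arm of IV (72.7 per Mb), and the sparsest was the right arm of V (31.3 per Mb). Among the centres X stood in the middle. The centres of III (91.1 per Mb) and II (86.3 per Mb) were denser than that of X, and those of V (68.1 per Mb) and IV (64.4 per Mb) were less dense. The autosomes also differed between their own ends. On II the left arm had 0.568 times the density of the right (0.473 to 0.680), whereas on IV it had 1.70 times (1.44 to 2.02). On X the ratio of left to right was 1.03 (0.902 to 1.17, exact binomial test p = 0.723).

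**Figure D1:**
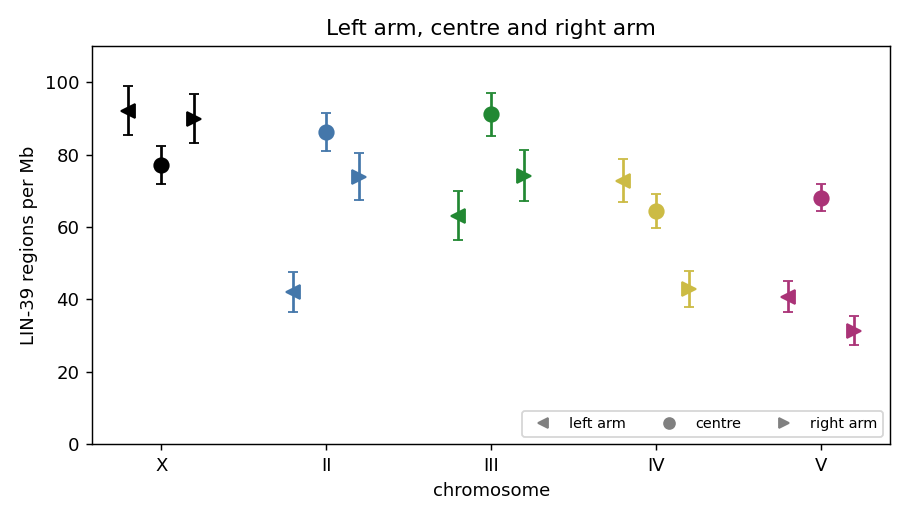
Regions per Mb (vertical axis) in the left arm (left-pointing triangle), centre (circle) and right arm (right-pointing triangle) of X and the 4 autosomes, with exact 95% binomial intervals as bars. The bars take the total of each chromosome as fixed, so they leave out its counting error when chromosomes are compared. The arms of X, at 92.0 and 89.8 per Mb, lie above its centre at 77.1, whereas the centres of II, III and V lie above both of their arms.

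Within X the contrast of arm and centre depended on where the arm ends. The left arm was 1.19 times as dense as the centre (1.05 to 1.35, exact binomial test p = 0.00465) and the right arm 1.16 times (1.03 to 1.32, p = 0.0162, exact binomial test). With arms of 25% these ratios were 0.989 (0.871 to 1.12) and 1.02 (0.903 to 1.16), and neither passed the test. Counting regions with midpoints within 2000 bp of each other once gave 1.08 (0.939 to 1.25) and 1.13 (0.980 to 1.30). By covered length the arms and centre were close, since regions covered 4.14% of the left arm, 4.08% of the centre and 4.22% of the right arm. With arms of 25% the centre of X was denser than the autosomal centres by 1.12 (1.03 to 1.21, adjusted p = 0.00744, exact binomial test), while both arm ratios to the autosomes stayed above 1.

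Bins of 10% of the span show the course along X. The first bin of X, at its left end, had the lowest density, 54.9 per Mb (97 regions). Density was 96.2 per Mb in the second bin and 125.0 per Mb in that from 20 to 30%, which is the innermost of the left arm and held 221 regions. The next pair of bins had 88.3 and 83.2 per Mb. From 50 to 60% of the span it was 66.2 per Mb, and from 60 to 70% it was 70.7. The right arm was flatter, at 93.4, 92.8 and 83.2 per Mb. X was therefore high on either side of a thinner stretch in the middle, with a sparse left end.

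Set against the same bins of II to V, X was above all 4 autosomes in 5 of the 10 bins and below all 4 in 0. These 5 bins were the second to the fourth and the last pair. In the fourth bin the margin was small, with 88.3 per Mb on X and 87.9 on III. In the second bin X had 96.2 per Mb and the autosomes 28.7 to 77.3, and in the ninth it had 92.8 against 18.2 to 62.4. By contrast, X lay below the autosomal median from the fifth to the seventh bin. X had 83.2, 66.2 and 70.7 per Mb there, and the medians were 83.8, 79.5 and 76.2. In the sixth only IV was below X, and in the seventh only V. The highest bin of X was 2.28 times the lowest, a smaller range than on III (2.37), IV (2.75), II (2.88) or V (4.55). The coefficient of variation over bins was 22.6% on X and 26.2 to 40.96% on the 4 autosomes. Left and right ends of different chromosomes are not equivalent, so the comparison of bins depends on how they were paired. Bins are not replicates and were not tested.

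**Figure D2:**
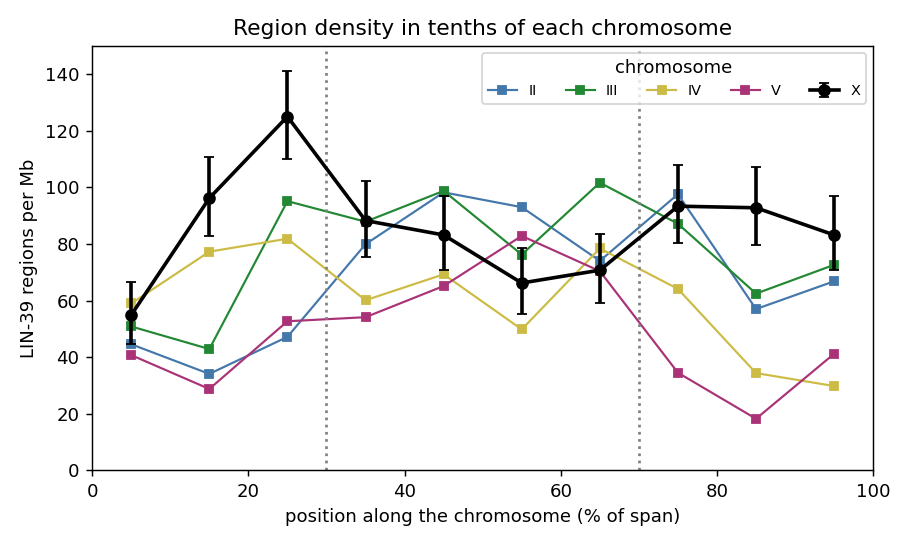
Regions per Mb (vertical axis) in 10 bins of 10% of the span (horizontal axis) for X, in black with exact 95% binomial intervals, and for II, III, IV and V without intervals; dotted lines mark the ends of the arms. The intervals take the total of X as fixed and leave out its counting error. X peaks at 125.0 per Mb between 20 and 30%, dips to 66.2 in the sixth and stays at 83.2 or more in the last 3 bins.

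Windows of 1 Mb give finer steps. The 17 complete windows of X held 38 to 127 regions with a median of 84, against 13 to 111 with a median of 64 in the 65 complete windows of II to V. Of the 17 windows, 15 lay above the autosomal median. The fullest ran from 4000001 to 5000000 with 127 regions, and its left neighbour, from 3000001 to 4000000, held 125. No complete window of II to V reached either count. From 5000001 to 6000000 there were 104 regions, and from 15000001 to 16000000 there were 102. Windows with at least 100 regions numbered 4 of 17 on X and 4 of 65 on the autosomes. The emptiest complete window was the first, from 1 to 1000000, with 38 regions, followed by that from 9000001 to 10000000 with 61 and that from 1000001 to 2000000 with 67. The last stretch, from 17000001 to 17674658, is incomplete and held 47.

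Windows of 100 kb on X held 0 to 20 regions with a median of 8, and 3 of 176 complete windows were empty. All of the empty ones lay near the left end, from 1 to 100000, from 200001 to 300000 and from 1700001 to 1800000. The fullest, with 20 regions each, ran from 5800001 to 5900000 and from 15300001 to 15400000. The variance over these windows was 2.16 times the mean on X, 2.26 times on III and 2.71 to 2.97 times on IV, II and V. For V, 19 of 208 windows were empty. Over the complete windows of 1 Mb the variance was 5.78 times the mean on X and 6.40 to 11.1 times on II to V. Counts thus varied more than counting error alone, and the intervals of the density ratios do not take this into account.

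The width of a region is the length from its listed start to its listed end. Its median on X was typical of the chromosomes compared. The median was 387 bp (exact interval 372 to 399), the quartiles were 273 and 571 bp, and the extremes were 1 and 7312 bp. The medians of the autosomes were 349 bp on II, 361.5 bp on III, 385 bp on IV and 391 bp on V, so X lay within their range. Narrow and very wide regions were both a small share. On X 43 regions, or 2.85% (exact 95% binomial interval 2.07 to 3.82), were under 50 bp, and 94, or 6.23% (5.06 to 7.57), were at least 1000 bp. The corresponding shares on II to V were 4.12% (3.54 to 4.76) and 8.14% (7.33 to 9.01). Each of the 4 autosomes had a higher share of regions of at least 1000 bp than X, from 7.20% on IV to 8.92% on V. The difference between these shares was not tested.

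Per Mb, X exceeded II to V in regions of medium width, which passed the test. From 200 to below 400 bp X had 35.3 regions per Mb and II to V 25.5, a ratio of 1.38 (1.26 to 1.52, adjusted over the 6 width classes p = 4.20e-11, exact binomial test). From 400 to below 1000 bp the densities were 35.02 and 22.5 per Mb, a ratio of 1.56 (1.42 to 1.71, adjusted p = 1.72e-18, exact binomial test). The other classes did not pass the test. Their ratios were 0.948 (0.662 to 1.33) below 50 bp, 1.10 (0.896 to 1.34) from 50 to below 200 bp, 1.06 (0.811 to 1.38) from 1000 to below 2000 bp and 0.990 (0.573 to 1.64) from 2000 bp. Regions of at least 1000 bp thus numbered 5.32 per Mb on X and 5.07 per Mb on II to V (ratio 1.05, 0.825 to 1.32, exact binomial test p = 0.680). Taken singly, II (5.96 per Mb) and III (6.10 per Mb) lay above X, and IV (4.35 per Mb) and V (4.36 per Mb) below it. Intervals of the rare classes are wide, and the ratios of the medium classes lie inside that of the class from 2000 bp. The lower of these ratios, 1.38, lies at the upper end of the interval from 1000 to below 2000 bp. The difference between classes was not tested.

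**Figure D3:**
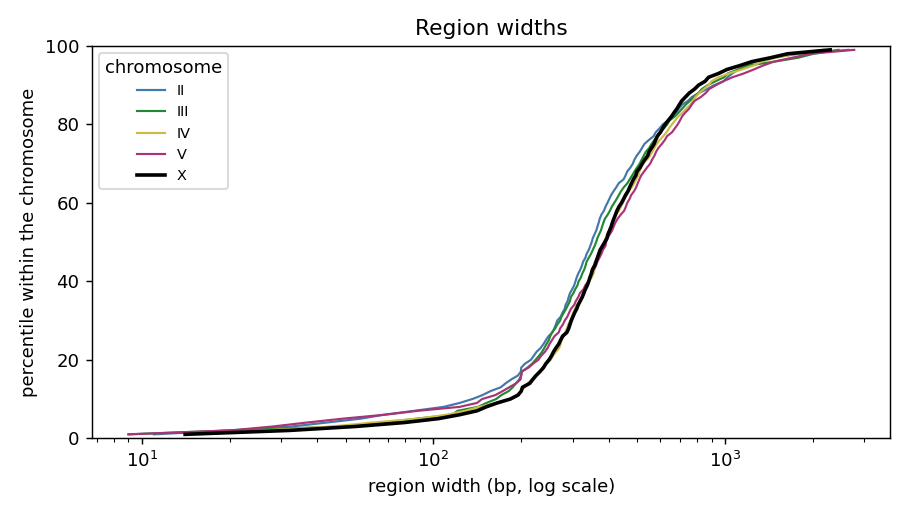
Region width in bp on a log scale (horizontal axis) against the percentile within each chromosome (vertical axis), 1 line per chromosome. X (black) runs with IV at low and middle widths, at a median of 387 bp, and has the smallest share of regions of at least 1000 bp, 6.23%.

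Along X the wide regions were counted apart from the others. Of the 94 regions of at least 1000 bp, 27 lay in the left arm, 45 in the centre and 22 in the right arm. Their density was 4.62 per Mb in arms and 6.37 per Mb in the centre, a ratio of 0.726 whose interval includes 1 (0.474 to 1.11, exact binomial test p = 0.140). Regions below 1000 bp were denser in arms (86.3 per Mb) than in the centre (70.7 per Mb), with a ratio of 1.22 (1.09 to 1.36, exact binomial test p = 0.000338). Of the 20 regions of at least 2000 bp on X, 12 were in the centre. Median widths were 373.5 bp in the left arm, 392 bp in the centre and 396 bp in the right arm, with overlapping intervals (357 to 397, 368 to 420 and 365 to 414 bp). Whether wide and narrow regions differ in their placing was not tested.

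Neighbouring regions on X were mostly a few kb apart. The median gap from the end of a region to the start of the next was 4964.5 bp, with quartiles of 1708 and 14025 bp. This was shorter than on any of the 4 autosomes, where the medians were 5831.5 bp on II, 6139 bp on III, 6927 bp on IV and 7261 bp on V. The shortest gap on X was 203 bp, and no gap on these 5 chromosomes was below 200 bp. Gaps over 50 kb made up 3.85% of the gaps on X and 4.31 to 10.7% on the autosomes. Gaps under 1 kb made up 14.5% on X and 14.4 to 16.6% on II to V.

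The share of regions in close pairs on X lay within the range of the sparser autosomes. On X 556 regions, or 36.8% (exact 95% binomial interval 34.4 to 39.3), had another midpoint within 2000 bp, against 37.1% (35.7 to 38.6) on II to V and 35.3 to 39.2% on the single autosomes. Within 5000 bp the share on X was 70.8%, above the 61.0 to 68.0% of the autosomes. Within X the share with a midpoint within 2000 bp was 42.8% (38.4 to 47.4) in the left arm, 32.7% (28.7 to 36.8) in the centre and 35.5% (31.2 to 39.99) in the right arm. On II to V the centres had the highest share, 39.7% (37.6 to 41.9), against 33.7% (30.9 to 36.6) in left arms and 35.7% (32.8 to 38.7) in right arms. Neighbours share their distance, so these intervals are too narrow, and no test was made.

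**Figure D4:**
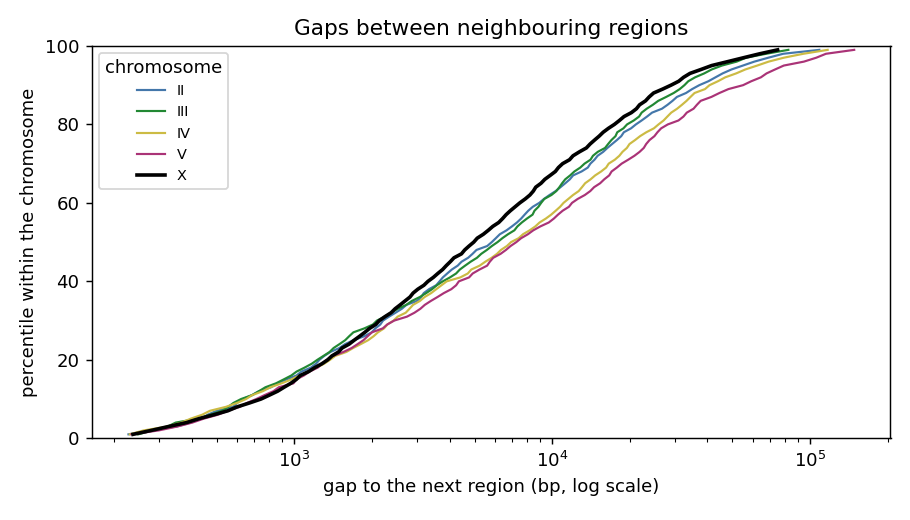
Gap from a region to the next in bp on a log scale (horizontal axis) against the percentile within each chromosome (vertical axis), 1 line per chromosome. The lines run close together at short gaps, with 14.5% of the gaps on X under 1 kb, and from the middle upward X (black), with a median of 4964.5 bp, lies left of the 4 autosomes.

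When regions were chained wherever neighbouring midpoints lay within 2000 bp, X fell into 1185 groups. Of these 953 were single regions, 172 pairs, 40 threes and 20 groups of at least 4, which held 92 regions in all. Groups numbered 67.0 per Mb on X and 38.6 to 59.6 per Mb on II to V, so X also exceeded II to V when near regions were counted once. The most members in a group on X was 6, found in 4 groups, compared with up to 8 on IV. A pair of these lay in the left arm, from 4799254 to 4804948 and from 4978161 to 4983706, inside the fullest 1 Mb window. The others ran from 5815349 to 5821491 in the centre and from 13194664 to 13200482 in the right arm. The first spans 5.70 kb with members 268 to 472 bp wide and enriched 2.08 to 7.28-fold.

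Of the stretches between neighbouring regions of X, the longest lay near the left end. The upper quartile of the gaps was nevertheless larger in the centre (17126 bp) than in the left arm (12051 bp) or the right arm (12742 bp). The longest ran from 1627380 to 1845512 (218 kb), and the next were from 182907 to 324040 (141 kb) and from 1909783 to 2043297 (134 kb). In the right arm the stretch from 17043322 to 17149772 (106 kb) and in the centre that from 12257056 to 12362809 (106 kb) followed. X had 6 such stretches of over 100 kb, III had 3, and II, IV and V had 13, 17 and 37. The stretch before the first region of a chromosome was not counted, and that of X was also over 100 kb. The first region of X, from 122045 to 122143, was 99 bp wide with 22 ChIP reads against 4 scaled input reads. The last ran from 17674355 to 17674658 with 44 ChIP reads against 13, and its end sets the span used here.

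How strongly ChIP stood above input on X was described by reads inferred from the q-values, which gave a pair of ChIP and scaled input numbers for all 1509 regions. The median region held 88 ChIP reads (interquartile range 54 to 146) against 36 scaled input reads. The median enrichment, the ratio of these numbers within a region, was 2.43-fold (exact interval 2.38 to 2.50) with an interquartile range of 2.00 to 3.13. It was 2.45-fold on III, 2.48-fold on V, 2.52-fold on IV and 2.60-fold on II. By the factors fitted to these numbers, the input had been multiplied by 1.98 on X, the highest of these chromosomes, and by 1.81 to 1.91 on II to V. Summed over the listed regions, ChIP reads stood to unscaled input reads at 4.52 to 1 on X and at 4.28 to 4.42 to 1 on the autosomes. With scaled input the ratios were 2.26 and 2.24 to 2.35. The listed regions covered 732 kb on X, or 4.14% of the span, and 2087 kb, or 3.10%, on II to V. A higher factor makes it harder for a region to be listed. When the input of all chromosomes was scaled by the factor of X, 1467 regions remained on X and 3865 on II to V, and the density ratio was 1.45 (1.36 to 1.54). Only chromosomes other than X gain input in this alternative, so its direction was fixed by its construction, and X lost regions because the limit on p falls as the list shortens.

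Enrichment differed little in its medians along X. It was 2.47-fold in the left arm (2.40 to 2.60), 2.43-fold in the centre (2.35 to 2.50) and 2.38-fold in the right arm (2.30 to 2.50), with overlapping intervals. By bins of 10% the median ran from 2.29-fold, between 60 and 70% of the span, to 2.70-fold, between 30 and 40%. The dense bin from 20 to 30% had 2.59-fold and the sparse first bin 2.44-fold. On X 76.3% of the regions were enriched at least 2-fold and 28.9% at least 3-fold, against 77.4% and 32.7% on II to V. At least 5-fold was reached by 86 regions (5.70%) on X and by 7.003% on II to V. These 86 had a median width of 132 bp.

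The ratio was lower in the wider classes. Regions on X of 200 to below 400 bp had a median of 64 ChIP reads and 2.46-fold enrichment, and those of 400 to below 1000 bp had 134 reads and 2.23-fold. From 1000 to below 2000 bp the medians were 325.5 reads and 1.93-fold, and from 2000 bp they were 729 reads and 1.79-fold. Below 50 bp a region held a median of 20 ChIP reads against 4 of scaled input, so its 5-fold rests on few reads. The same order held on II to V, from 5.50-fold below 50 bp to 1.87-fold from 2000 bp. A region with few reads has to show a high ratio to be listed, so part of this order follows from the q limit.

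**Figure D5:**
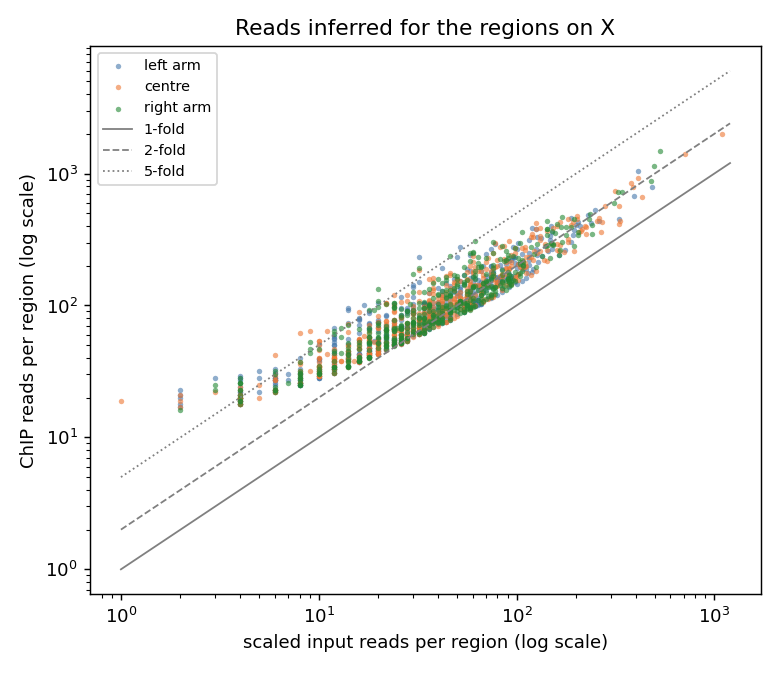
ChIP reads (vertical axis) against scaled input reads (horizontal axis) for the 1509 regions of X, both on log scales and both inferred from the q-values, coloured by arm and centre; grey lines mark ratios of 1, 2 and 5. Points of the left arm, centre and right arm overlap, at medians of 2.47, 2.43 and 2.38-fold, and regions with few reads appear only at high ratios.

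The region of X with the smallest q, seventh in the whole list, lay near the right end, from 16929326 to 16932035 (2710 bp). It held 1472 ChIP reads against 534 of scaled input, an enrichment of 2.76-fold, with q = 1.01e-97 in the authors' deposited table. The next on X, from 4960241 to 4964152 in the left arm, had 1042 against 409 reads (2.55-fold, q = 5.08e-61). The third, from 6738525 to 6745836, was also the widest on X at 7312 bp, with 1987 against 1093 reads and 1.82-fold. From 13143124 to 13145662 there were 1142 against 496 reads (2.30-fold). These leading regions hold many reads at ratios on either side of the median of X.

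Of the 10 regions of X with the smallest q, 6 lay in the centre, 3 in the right arm and 1 in the left arm. A pair of them lay close together in the centre, from 11462934 to 11465665 (846 reads, 2.23-fold) and from 11471146 to 11477321 (1405 reads, 1.99-fold), with 5480 bp between them that hold another listed region. The others in the centre were from 6296189 to 6296813 (424 reads, 3.39-fold), from 8019051 to 8022178 (923 reads, 2.25-fold) and from 10568027 to 10569437 (740 reads, 2.34-fold). The region from 14016521 to 14017235 in the right arm reached 5-fold on 310 ChIP reads. The median width of the 10 was 2721 bp.

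Width and ratio picked out different regions. The 5 widest include 3 of those named above, besides the regions from 11603484 to 11607428 (3945 bp, 2.02-fold) and from 4144090 to 4147907 (3818 bp, 1.62-fold). Among the 209 regions of X with at least 200 ChIP reads, the highest ratio was 7.28-fold, from 4802315 to 4802786, with 233 ChIP reads against 32. It was followed by the regions from 1021674 to 1022485 (5.35-fold, 278 reads), from 12690277 to 12690724 (5.15-fold, 237 reads), the region at 5-fold named above, and that from 4154791 to 4155425 (4.70-fold, 235 reads). Of these 5, 3 lay in the left arm and 2 in the right arm. The region at 7.28-fold is a member of the group of 6 from 4799254 to 4804948.

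Among the leading regions X also held more than its share of the span, within counting error for the shortest list. Of the first 100 regions of II to V and X by place in the list, 25 lay on X (25%, exact 95% binomial interval 16.9 to 34.7), where X makes up 20.8% of the span. Among the first 1000 there were 268 (26.8%, 24.1 to 29.7), and among all 5709 the share was 26.4% (25.3 to 27.6). At the first 100 the interval includes the share of the span, so an excess was not detectable at that depth.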

How the data were processed

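ChIP and input libraries of strain OP18 were grouped from their descriptions. The authors' deposited file gives a q-value per region, called with PeakSeq on build WS180, per the file headers and columns. How replicates were combined, the aligner, filters and versions are not given in the sources used here. Depth is given per region, as inferred reads.

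The list is ordered by q multiplied by rank, which never falls (0 steps). This product equals p times the number of tests. That number was searched up to 150000, and 25497 fitted 60 of 60 common values to a binomial tail with probability 0.5, against 1 for the next best. ChIP and scaled input reads were then solved from each p (tolerance 3e-11 on its natural log), with 1 pair for 7483 regions, 10 left out with 2 pairs, and all on X solved. Reads are thus inferred under this form, not listed by the authors. The input factor was fitted in steps of 0.0005, with high input numbers left out. It is the one whose multiples, rounded up, covered the largest share of input numbers beyond that expected by chance (97.5% on X, 50.4% by chance). A simulated list of 8560 regions from 20000 tests, built with the same form, returned the number of tests and the simulated pair in 100% of the solved regions.

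The span of a chromosome is the largest end of its regions. Density ratios carry Clopper-Pearson 95% intervals and exact binomial tests. The arm odds and the tests by width class were added after seeing the data. Members, lists and tests were chosen with earlier results of these data known. Named regions of X are the 10 with the smallest q, the 5 widest, and the 5 most enriched with at least 200 ChIP reads. The first and last regions, the 5 longest gaps between neighbouring regions, the largest groups, and the fullest and emptiest windows were also named. Further windows were named after their counts were seen. Python 3.11.15, SciPy 1.17.1, NumPy 2.4.6, pandas 2.3.3 and matplotlib 3.10.9 were used. Alternatives changed the regions counted, spans, arms, autosomes, input scaling and read form.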

Additional observations from a re-analysis of the deposited data

How the results depend on the processing

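Density of X over II to V kept its direction and passed the test in the alternatives that changed the regions counted, the span or the autosomes, from 1.25 without V to 1.46 without III, and was 1.34 by covered length. With input scaled by the highest factor it was 1.45, a rise fixed by construction. Ratios of X to II, IV and V, the odds of an arm, and the right arm of X over autosomal right arms also kept their calls in the alternatives run. X over III missed the threshold in the 50% of the list with the smallest q (1.09). The left arm over autosomal left arms moved to 1.53 by covered length, and the centre passed the test with arms of 25% (1.12). On X, arms over centre fell from 1.18 to 1.10 with near regions counted once, 1.01 with arms of 25% and 1.02 by covered length. The left arm over centre became 1.08, 0.989 (the other direction) and 1.01 in these, and the right arm over centre 1.13 and 1.02 in the first pair and 1.17 in the 50% with the smallest q. Leaving the outer 10% out of the arms gave a left to right ratio of 1.19 (exact binomial test p = 0.0229). The median width became 482 bp in the 50% with the smallest q. The share with a near neighbour became 10.9% within 1000 bp, 70.8% within 5000 bp and 46.7% by gaps between edges, as the changed distance implies. The median enrichment became 2.32 with a strict tail and 2.22 with at least 20 scaled input reads. The cause was not tested for the other changes. Alternatives on single autosomes, on parts against autosomes, on arm odds, without the outer 10% and by covered length within X were chosen once the values had been seen. Depth limits the ratios of regions under 50 bp. No paired analysis was possible because all libraries enter 1 value per region, and no replicate could be left out either.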
